A study of Mus musculus and Homo sapiens with 34 samples.

Results

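The gastrokines and the trefoil factors are small secreted proteins of the gut lining, followed here as 6 mouse genes, Gkn1, Gkn2, Gkn3, Tff1, Tff2 and Tff3, and as 5 human genes, GKN1, GKN2, TFF1, TFF2 and TFF3. They were taken by gene symbol from 7 tables of raw counts, which makes 11 gene identifiers among the 48431 listed in any of the tables. The study measured RNA from lung adenocarcinoma cultures in 34 libraries, 22 of mouse and 12 of human cells, in 17 groups of 2. It altered HNF4A, a transcription factor of liver, gut and stomach epithelium, in cells that keep the lung factor NKX2-1, and it applied 2 signalling inhibitors, MRTX1133 and the MEK inhibitor trametinib.

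All 3 mouse lines carry FRT-flanked p53 alleles (p53frt) and a tamoxifen-activated Cre recombinase (Rosa-FSF-CreERT2), and controls share these alleles. Line 3154, grown as organoids, also carries Hnf4aflox: 4OHT, the active form of tamoxifen, switches on the Cre and deletes Hnf4a, and ethanol (EtOH) is its vehicle. In one experiment 3154 organoids had 4OHT (2 mM as the labels state it, a dose high for organoid culture that could not be checked) or ethanol for 2 days and were harvested 2 weeks later. In another, labelled 48 h, they had 4OHT (dose not named), 3 nM MRTX1133, both or neither, and the labels do not say which was given first. For 3154, 48 h below names this experiment and not a known time since 4OHT. Lines 1027B (organoids) and 3311 (grown in serum without the organoid medium) carry Foxa1flox and Foxa2flox, but no treatment with 4OHT is named for them. 1027B organoids had vehicle, 10 nM trametinib or 20 nM MRTX1133, and 3311 cells had vehicle or 50 nM trametinib, each for 48 h. H358 and H1651 are established human lung adenocarcinoma cell lines, which had vehicle or 20 nM trametinib for 48 h. H1651 cells with a lentiviral HNF4A construct were also grown for 7 days with or without 1 µg/mL doxycycline, which switches the construct on. The labels do not say that the 2 libraries of a group came from separate cultures, so the p-values measure the spread between libraries, which may be technical.

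Gastrokines carry a BRICHOS domain and are products of the surface mucous cells of the stomach, where Gkn2 forms a disulphide-linked dimer with Tff1. Trefoil factors share the compact trefoil domain, coat and help to repair the mucosa, and divide the gut between them. Tff1 marks gastric surface (pit) cells, Tff2 the gastric mucous neck cells, and Tff3 the goblet cells of the intestine. With other gastric genes they are known from lung adenocarcinomas of gastric-like mucinous type, and Gkn2 RNA is also known from normal lung.

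In the mouse genome (GRCm38, GENCODE M21) the genes form 2 clusters. The gastrokines lie within 43286 bp of chromosome 6, with Gkn1 at 87345650-87350942 on the minus strand, Gkn2 at 87373357-87379497 on the plus strand and Gkn3 at 87383256-87388935 on the minus strand. The trefoil genes lie within 39972 bp of chromosome 17, all on the minus strand, with Tff3 at 31125306-31129646, Tff2 at 31141049-31144282 and Tff1 at 31161395-31165277. RefSeq promoter sequences (GRCm38) were matched for 3 of the 6 genes, the gastrokines. They are printed because these 3 neighbours were measured together and did not all move together. Each line runs 5′ to 3′ on the gene's strand and ends at the base before the annotated transcript. Capitals mark the searched letters of motifs, read on both strands.
Gkn1 (chr6:87350943-87351165, minus strand): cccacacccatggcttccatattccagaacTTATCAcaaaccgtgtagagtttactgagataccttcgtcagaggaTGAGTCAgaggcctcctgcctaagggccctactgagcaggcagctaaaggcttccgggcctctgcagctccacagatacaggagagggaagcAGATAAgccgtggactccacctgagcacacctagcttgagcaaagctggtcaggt
Gkn2 (chr6:87373115-87373356, plus strand): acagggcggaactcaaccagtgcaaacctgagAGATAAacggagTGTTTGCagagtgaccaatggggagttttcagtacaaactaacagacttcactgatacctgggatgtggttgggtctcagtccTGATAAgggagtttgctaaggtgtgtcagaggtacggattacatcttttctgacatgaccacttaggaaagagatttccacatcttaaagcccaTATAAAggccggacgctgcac
Gkn3 (chr6:87388936-87389185, minus strand): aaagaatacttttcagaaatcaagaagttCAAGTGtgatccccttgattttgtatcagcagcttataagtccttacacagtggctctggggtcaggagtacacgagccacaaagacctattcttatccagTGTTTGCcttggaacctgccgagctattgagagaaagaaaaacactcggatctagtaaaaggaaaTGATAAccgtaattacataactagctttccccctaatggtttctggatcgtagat

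Windows of 250 bases before the RefSeq start were searched, and the printed lines stop short of it where GENCODE starts the gene earlier, at 223, 242 and 250 bases for Gkn1, Gkn2 and Gkn3. Every match lay in the printed part. All 3 windows held letters of the GATA motif (AGATAA or TGATAA), which stood in 16.6% of the 32851 mouse promoters searched the same way. The FOXA letters (TGTTTAC or TGTTTGC, 7.29% of promoters) stood in Gkn2 and Gkn3 and the AP-1 letters (TGANTCA, 6.75%) in Gkn1 alone. A TATA box (TATAAA, 12.4%) stood in Gkn2 alone and the NKX2-1 letters (CAAGTG, 11.6%) in Gkn3 alone. Neither the core letters of the HNF4 direct repeat (CAAAGTCCA, 0.384%) nor the nuclear receptor letters AGGTCA (14%) stood in any of the 3 windows. A match here is a match of letters, not a measured binding site.

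The tables did not all list every member. All 6 were listed in both 3154 tables, Gkn1, Gkn2, Gkn3 and Tff1 in the 1027B table, and Gkn2, Gkn3 and Tff3 in the 3311 table. GKN2, TFF1, TFF2 and TFF3 were listed in all 3 human tables and GKN1 in the 2 without doxycycline. A gene missing from a table is not analysed there. In the 3311 table the columns are named only by treatment and replicate, and the line was taken from the table's name. Totals ran from 19692517 to 45284286 counts a library. Levels are given as raw counts and as CPM, counts scaled to one common library size with edgeR's TMM factors. A change was called at an adjusted p under 0.05 in edgeR's quasi-likelihood test, with Benjamini-Hochberg adjustment over all genes tested in the table. An exact permutation test of 2 libraries against 2 cannot give a two-sided p below 0.333, so no single-gene permutation test was used. Hnf4a RNA fell as the labels say, from 371 to 60.7 CPM in the 2-week experiment, and HNF4A rose from 41.5 to 95.6 CPM with doxycycline. The 5 epithelial markers tested were present in every group, and the 2 parietal cell genes summed to at most 0.483 CPM in the mouse libraries.

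**Figure D1:**
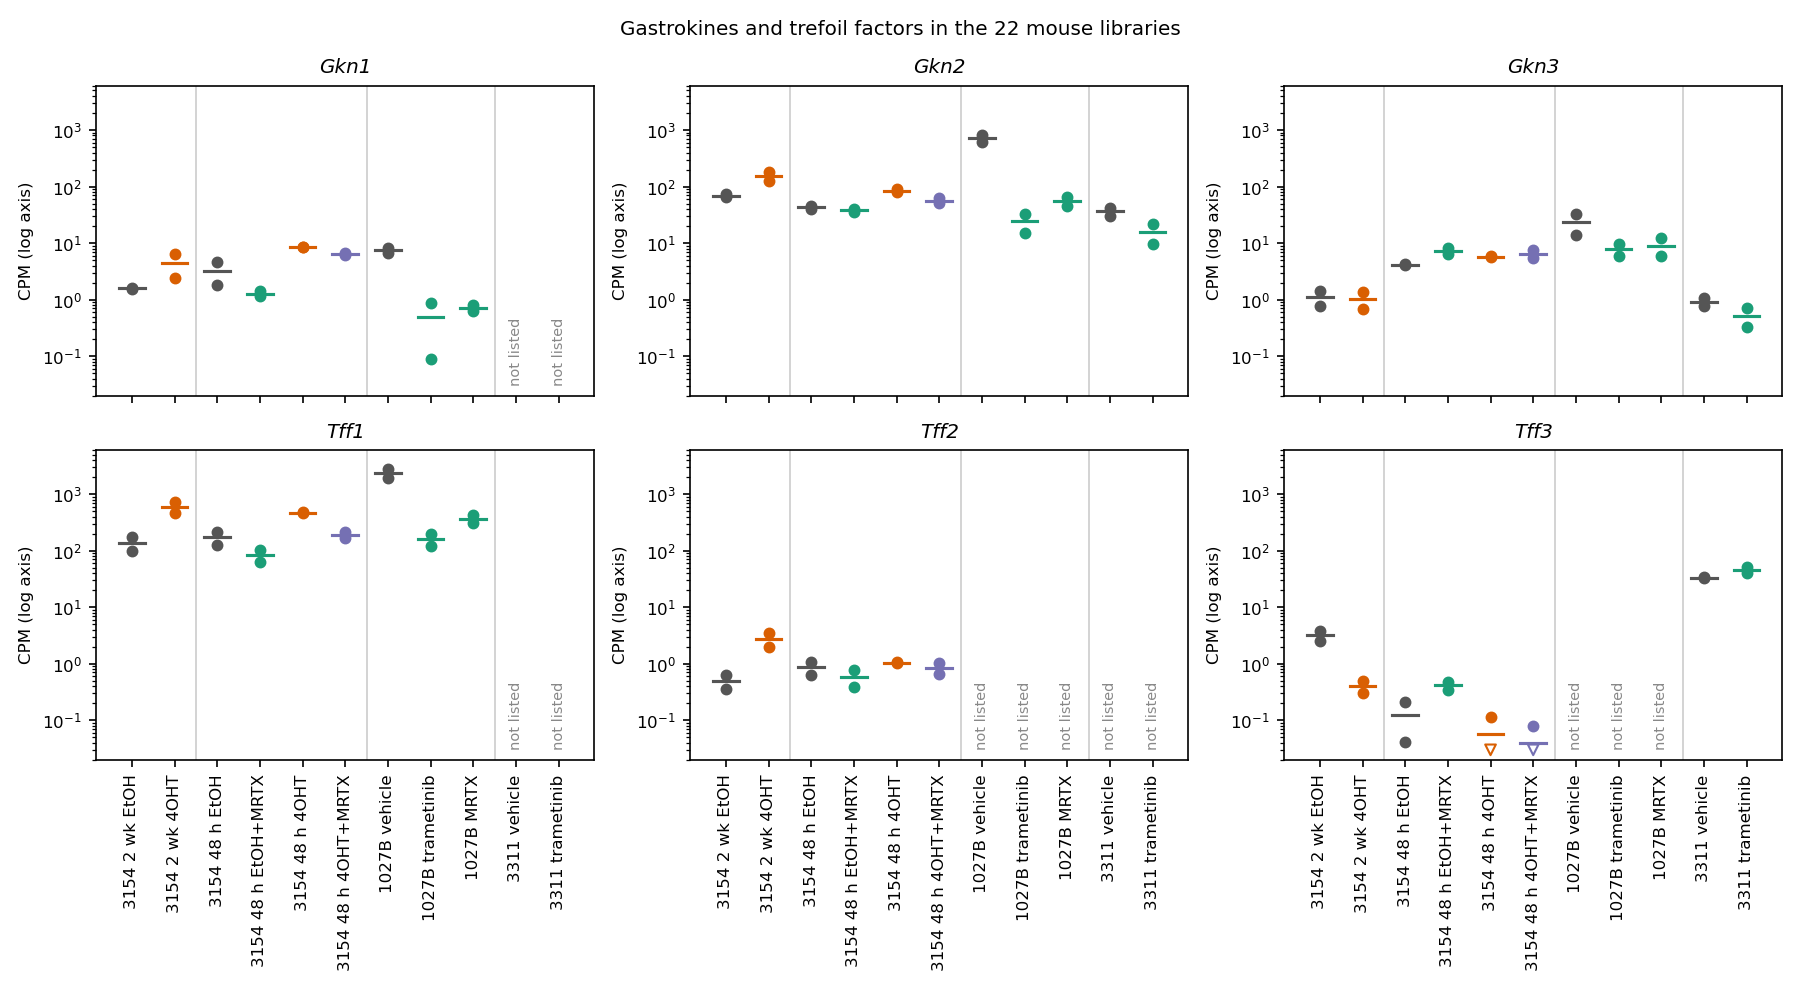
Level of each member in every mouse library, as TMM-scaled CPM on a log axis, with one point a library and a bar at the group mean; grey is control, orange 4OHT, green an inhibitor and purple both, and open triangles mark a count of 0. Tff1 and Gkn2 are the 2 highest members in all 3154 and 1027B groups, and both fall in 1027B with either inhibitor.

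In the 3154 and 1027B groups Tff1 was the most abundant member and Gkn2 came next. Levels were compared between genes per kilobase of merged exon length, as CPM per kb. In 1027B vehicle organoids Tff1 stood at 3329 ± 906 CPM per kb (SD, n = 2), Gkn2 at 903 ± 170, Gkn3 at 27.4 ± 16.0 and Gkn1 at 5.95 ± 0.904. No library of one gene overlapped with a library of the next in that order. In 3154 organoids given ethanol and no inhibitor in the 48 h experiment the order was the same. There Tff1 stood at 244 CPM per kb, Gkn2 at 54.4, Gkn3 at 4.83, Gkn1 at 2.56, Tff2 at 1.47 and Tff3 at 0.255. There the libraries of Gkn1 and Tff2 overlapped. The 3311 cells had a different leading gene among the 3 listed: Tff3, the goblet cell trefoil factor, stood at 67.0 ± 1.40 CPM per kb and Gkn2 at 46.2 ± 10.4 CPM per kb. In 3154 organoids Tff3 stood between 0.0800 and 6.40 CPM per kb in its 6 groups. The 2 lines were in separate tables and this difference was not tested.

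In 1027B organoids, trametinib removed most of the RNA of Tff1, Gkn2 and Gkn1. Tff1 counts were 57623 and 34890 with vehicle and 2703 and 4272 with trametinib. That is 2340 ± 637 CPM (SD, n = 2) against 160 ± 55.8 CPM, 6.83% of the control level, with a log2 fold change of -3.87 (SE 0.33, edgeR adjusted p = 0.000979). Every trametinib library lay far below both vehicle libraries. Gkn2, the dimer partner of Tff1, gave 16654 and 11391 counts with vehicle and 340 and 712 with trametinib. It fell from 712 ± 134 to 24.2 ± 12.8 CPM (log2 fold change -4.88, SE 0.41, edgeR adjusted p = 0.000958), to 3.40% of control. The groups again did not overlap, and with 1 library left out the log2 fold change lay between -5.56 and -4.42. Gkn1, the other surface mucous cell gastrokine, had 137 and 152 counts with vehicle and 2 and 19 with trametinib, or 7.43 ± 1.13 against 0.488 ± 0.564 CPM. Its log2 fold change was -3.93 (SE 0.69, edgeR adjusted p = 0.00891). Both trametinib libraries were below both vehicle libraries, but one of them held only 2 counts, and leaving out trametinib replicate 2 gave a log2 fold change of -6.29, leaving out trametinib replicate 1 one of -3.06.

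Gkn3, a gastrokine of gastric mucous cells with no functional human gene, had a smaller fold change. Its counts were 684 and 253 with vehicle and 213 and 128 with trametinib, a mean of 23.4 ± 13.7 against 7.73 ± 2.48 CPM. The groups did not overlap, but the vehicle libraries were themselves far apart, and the log2 fold change of -1.60 (SE 0.51) missed the threshold (edgeR adjusted p = 0.0575). Libraries with the same replicate number deviated together in this table, and the fit with the replicate block called Gkn3 lower (log2 fold change -1.53, edgeR adjusted p = 0.000208). DESeq2 also called it (adjusted p = 0.00561), as did the fit on these 2 groups alone (edgeR adjusted p = 0.0459) and the fit without vehicle replicate 2 (log2 fold change -2.07, edgeR adjusted p = 0.0322). Without vehicle replicate 1 the log2 fold change shrank to -0.83 (edgeR adjusted p = 0.267). In all, 3 of the 4 members tested were called and all 3 were lower, where 26.7% of the 14555 genes tested were called and 13.2% were lower. The median log2 fold change of the 4 members was -3.90, against -0.01 over all genes tested.

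MRTX1133 lowered Tff1, Gkn2 and Gkn1 in 1027B as well. Tff1 had 8400 and 8548 counts with MRTX1133, or 369 ± 80.7 CPM, 15.8% of the vehicle level (log2 fold change -2.66, SE 0.31, edgeR adjusted p = 0.00946). Gkn2 had 1220 and 1290 counts, or 54.8 ± 13.4 CPM, 7.70% of vehicle (log2 fold change -3.70, SE 0.38, edgeR adjusted p = 0.00725). Gkn1 had 17 and 16 counts, or 0.715 ± 0.117 CPM (log2 fold change -3.38, SE 0.66, edgeR adjusted p = 0.0347). For all 3 genes the MRTX1133 libraries lay below both vehicle libraries. Gkn3, with 330 and 118 counts, stood at 9.07 ± 4.51 CPM and was not called (log2 fold change -1.36, SE 0.50, edgeR adjusted p = 0.166). It was called with the replicate block (edgeR adjusted p = 0.00107) and by DESeq2 (adjusted p = 0.0447), while leaving out 1 library gave log2 fold changes between -1.99 and -0.59 (the latter without vehicle replicate 1, edgeR adjusted p = 0.539) and no call. The count was 3 of 4 members, all lower, against 6.27% of all genes called and 3.26% lower. The Gkn1 call rested on every library: without any 1 of the 4 its edgeR adjusted p lay between 0.0929 and 0.172. The Tff1 call was lost without MRTX1133 replicate 1 (edgeR adjusted p = 0.0513).

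The 2 inhibitors share their vehicle libraries and were given at different doses, 10 nM and 20 nM, so the direct contrast compares those treatments at those doses only. Tff1 was higher with MRTX1133 than with trametinib by 1.21 on the log2 scale (SE 0.30, edgeR adjusted p = 0.151) and Gkn2 by 1.18 (SE 0.36, edgeR adjusted p = 0.203). For both genes the 2 groups did not overlap. Without trametinib replicate 1 the difference in Gkn2 was 0.72, and without trametinib replicate 2 it was 1.86. Neither was called, nor was any of the 14555 genes in this contrast (0%), of which 2357 had an unadjusted p under 0.05. With the replicate block 2050 genes were called and with DESeq2 712, and both Tff1 (0.0167 and 0.00244) and Gkn2 (0.0287 and 0.0187) were among them at those adjusted p-values. For Gkn1 (log2 difference 0.55, SE 0.77) and Gkn3 (0.24, SE 0.51) the groups overlapped.

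**Figure D2:**
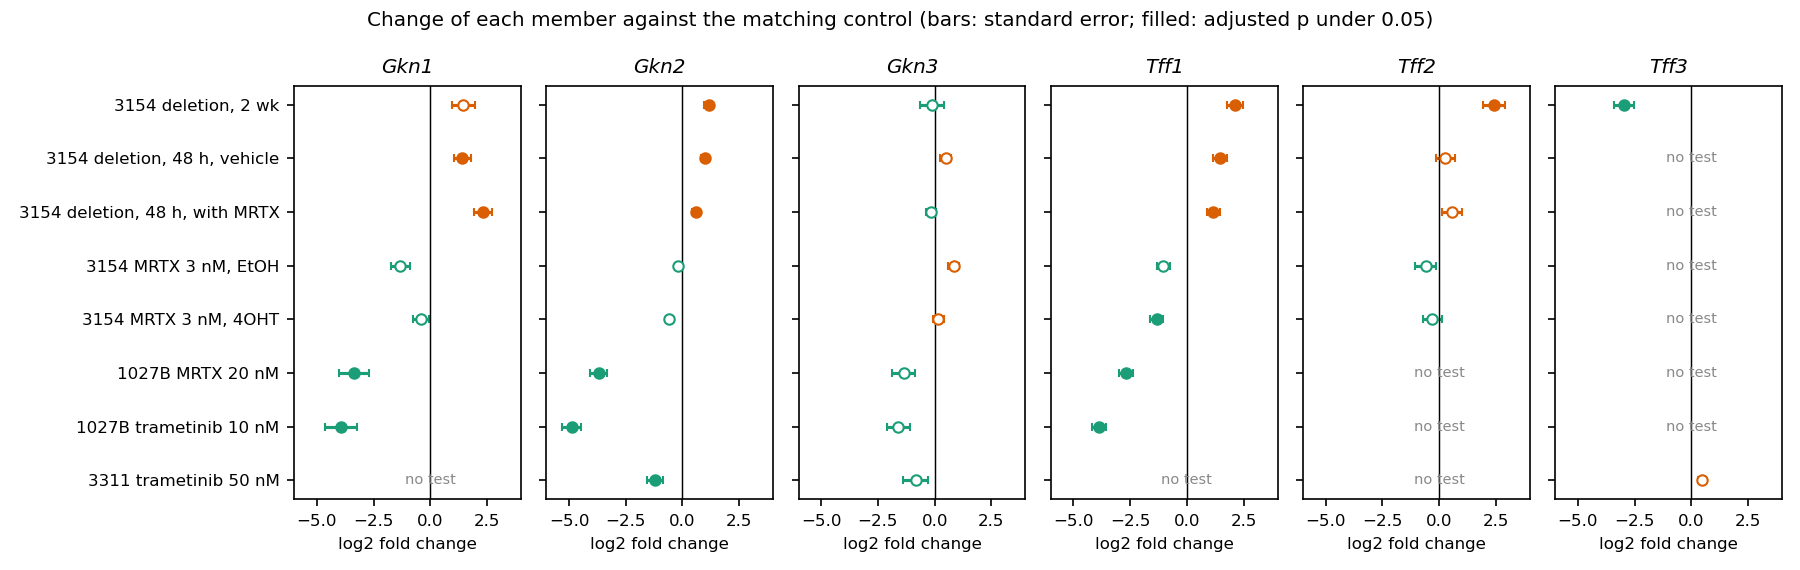
Log2 fold change of each member against its matching control in 8 mouse comparisons, with bars of 1 standard error; orange is above 0 and green below, filled points have an edgeR adjusted p under 0.05, and "no test" marks a gene not listed or filtered out. Gkn1, Gkn2 and Tff1 lie right of 0 on Hnf4a deletion and left of 0 with either inhibitor in 1027B, while Gkn3 is filled in none of the 8.

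In 3311 cells, 50 nM trametinib lowered Gkn2 as well. The log2 fold change was smaller than with 10 nM in 1027B, a difference that was not tested. Its counts were 825 and 1060 with vehicle and 272 and 573 with trametinib, 36.4 ± 8.18 against 15.8 ± 8.52 CPM (log2 fold change -1.21, SE 0.36, edgeR adjusted p = 0.0361). The groups did not overlap. The call was lost without vehicle replicate 1 (log2 fold change -1.43, edgeR adjusted p = 0.0593), vehicle replicate 2 (-0.96, 0.132) or trametinib replicate 1 (-0.74, 0.0553). It was kept without trametinib replicate 2 (-1.91, edgeR adjusted p = 1.03e-06). Gkn3 was scarce, with 21 and 27 counts against 9 and 19 (log2 fold change -0.83, SE 0.55, edgeR adjusted p = 0.266), and the log2 fold change was -0.36 without trametinib replicate 1 and -1.51 without trametinib replicate 2. Tff3 went the other way in its values, with 902 and 817 counts with vehicle and 1426 and 1051 with trametinib, or 33.0 ± 0.690 against 45.6 ± 7.88 CPM. Both trametinib libraries were above both vehicle libraries, but the log2 fold change of 0.46 (SE 0.17) was not called (edgeR adjusted p = 0.0614) and was 0.27 without trametinib replicate 1. With 1 of 3 members called in a comparison that called 39% of all genes and 19.6% lower, the share of members was near the background.

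ERK target genes moved beside these results. From a list of 12 genes read as ERK output, 10 of 11 tested were lower with trametinib in 1027B, 6 of 11 with MRTX1133 in 1027B and 11 of 12 in 3311. Of all genes 13.2%, 3.26% and 19.6% were lower there. The list's median log2 fold changes were -2.31, -1.09 and -1.92. With 3 nM MRTX1133 in 3154, 0 of 12 were called with Hnf4a present (median -0.39) and 3 of 12, all lower, with 4OHT (median -0.50). Of all genes 0.349% were called in the first of these and 2.54% were lower in the second. In 1027B Hnf4a itself fell to 227 CPM with trametinib and 270 CPM with MRTX1133, from 459 CPM (log2 fold changes -1.01 and -0.76, edgeR adjusted p = 0.00535 and 0.0375). The part of Hnf4a in the change of the members was not tested.

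Deleting Hnf4a in 3154 organoids raised the same surface mucous genes in the 48 h experiment. In vehicle, Tff1 counts were 3039 and 5122 with ethanol and 12784 and 10261 with 4OHT, or 171 ± 61.6 against 471 ± 18.8 CPM. The log2 fold change was 1.46 (SE 0.29, edgeR adjusted p = 0.00789), and both 4OHT libraries were above both ethanol libraries. Gkn2 had 1080 and 961 counts with ethanol and 2342 and 1815 with 4OHT. It rose 1.98-fold, from 42.9 ± 3.61 to 84.9 ± 5.49 CPM (log2 fold change 0.99, SE 0.15, edgeR adjusted p = 0.00273), without overlap, a size under a limit of 1 on the log2 scale. Gkn1 had 109 and 43 counts with ethanol and 221 and 195 with 4OHT, or 3.19 ± 1.97 against 8.54 ± 0.231 CPM (log2 fold change 1.42, SE 0.37, edgeR adjusted p = 0.0216). The ethanol libraries of Gkn1 differed from each other more than the 4OHT libraries did, and the call was lost in a fit of these 2 groups alone (edgeR adjusted p = 0.0786) or without either 4OHT library (0.0879 and 0.101). Its log2 fold change was 2.23 without ethanol replicate 1 and 0.89 without ethanol replicate 2, both called.

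Gkn3 and Tff2 showed no called change in that comparison. Gkn3 counts were 96 and 101 with ethanol and 154 and 128 with 4OHT (log2 fold change 0.48, SE 0.23, edgeR adjusted p = 0.148), and the groups did not overlap. Tff2 counts were 15 and 26 against 27 and 24 (0.28, SE 0.43, edgeR adjusted p = 0.653), and its groups overlapped in CPM. Tff3, with 1 and 5 counts against 3 and 0, did not pass the filter on low counts. So 3 of 5 members tested were called, all higher, where 31% of the 15458 genes tested were called and 15.3% were higher.

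With MRTX1133 present in both arms, deletion again raised Tff1, Gkn2 and Gkn1. Tff1 had 1675 and 2574 counts with ethanol and 4260 and 5897 with 4OHT, 83.8 ± 27.8 against 189 ± 29.2 CPM (log2 fold change 1.17, SE 0.29, edgeR adjusted p = 0.0205). Gkn2 had 928 and 997 counts against 1571 and 1447 (0.58, SE 0.15, edgeR adjusted p = 0.0233). Gkn1 had 30 and 35 counts against 155 and 192, a rise from 1.28 ± 0.183 to 6.46 ± 0.498 CPM (log2 fold change 2.34, SE 0.40, edgeR adjusted p = 0.00459). None of the 3 pairs of groups overlapped. The Gkn1 call held without each library in turn, with an edgeR adjusted p of at most 0.0396. The Gkn2 call was lost without any 1 of the 4 libraries (edgeR adjusted p from 0.0532 to 0.174) and the Tff1 call without ethanol replicate 1 (0.100) or either 4OHT library (0.0580 and 0.119). The count was 3 of 5, all higher, against 27.7% of all genes called and 13.2% higher. Gkn3 (log2 fold change -0.18, SE 0.22) and Tff2 (0.58, SE 0.45) were not called, and both pairs of groups overlapped. Tff3 summed to 21 counts over the 2 ethanol libraries and 2 over the 2 4OHT libraries. That is a ratio of 11.0, with an exact 95% interval of 2.69 to 97.0 that covers counting error only.

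In the experiment harvested 2 weeks after a 2-day pulse of 4OHT, Tff1 and Gkn2 were again higher, Tff2 was higher and Tff3 was lower. Tff1 had 5312 and 2151 counts with ethanol and 14183 and 19262 with 4OHT, 136 ± 55.5 against 594 ± 181 CPM (log2 fold change 2.13, SE 0.35, edgeR adjusted p = 0.0223). Gkn2 had 2006 and 1620 counts against 3887 and 4845, 69.4 ± 4.69 against 155 ± 38.2 CPM (1.15, SE 0.19, edgeR adjusted p = 0.0246). In both genes each 4OHT library exceeded each ethanol library. Tff2, the mucous neck cell trefoil factor, had 19 and 8 counts with ethanol and 105 and 52 with 4OHT, 0.493 ± 0.189 against 2.70 ± 1.06 CPM. It rose by 2.42 on the log2 scale (SE 0.49, edgeR adjusted p = 0.0382) from a low level. Tff3 moved in the opposite direction, from 77 and 84 counts to 15 and 8, or 3.16 ± 0.873 to 0.396 ± 0.136 CPM. Its log2 fold change was -2.96 (SE 0.45, edgeR adjusted p = 0.0187), with no overlap between groups. Tff2 and Tff3 each had a library of only 8 counts in their lower group. In the 48 h deletion in vehicle Tff2 was not called and Tff3 was not tested.

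Gkn1 had 48 and 35 counts with ethanol and 74 and 168 with 4OHT (log2 fold change 1.46, SE 0.51, edgeR adjusted p = 0.130). The 4OHT libraries were both higher but far apart, and the log2 fold change was 0.62 without 4OHT replicate 2 and 1.99 without 4OHT replicate 1. Gkn3 did not separate the groups, with 44 and 17 counts against 42 and 18 (log2 fold change -0.12, SE 0.53, edgeR adjusted p = 0.903). In all 4 of 6 members were called, 3 higher and 1 lower, against 9.81% of the 14492 genes tested, 4.03% higher and 5.78% lower. All 4 calls were lost without 4OHT replicate 2 (edgeR adjusted p from 0.0531 to 0.0854), and those of Tff2 (0.199) and Tff3 (0.0695) also without 4OHT replicate 1. With at least 10 counts required in every library, 2 members were called, as Tff2 and Tff3 were no longer tested.

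In 3154 MRTX1133 was given at 3 nM, and no member was called while Hnf4a was present. The 20 nM used in 1027B belongs to another table, and the difference between the lines was not tested. Tff1 went from 171 ± 61.6 to 83.8 ± 27.8 CPM (log2 fold change -1.03, SE 0.29, edgeR adjusted p = 0.230), and the log2 fold change was -0.61 without ethanol vehicle replicate 2. Gkn1 had a log2 fold change of -1.32 (SE 0.41, edgeR adjusted p = 0.273), Gkn2 of -0.18 (SE 0.15), Tff2 of -0.59 (SE 0.46) and Gkn3 of 0.83 (SE 0.23, edgeR adjusted p = 0.218). Of 5 members 0 were called, in a comparison that called 54 of 15458 genes, 0.349%. At an unadjusted p under 0.05, 3 of the 5 passed (Tff1, Gkn1 and Gkn3), as did 1820 of all 15458 genes, and DESeq2 called Tff1 (adjusted p = 0.0209). The log2 fold change of Gkn1 was -1.84 without ethanol vehicle replicate 2, where it was called (edgeR adjusted p = 0.0195), and -0.50 without ethanol vehicle replicate 1 (edgeR adjusted p = 0.470). Tff3 had 6 counts with vehicle and 21 with MRTX1133 over the 2 libraries of each group, a ratio of 3.27 with an exact 95% interval of 1.28 to 9.89 for counting error only.

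In organoids given 4OHT, MRTX1133 lowered Tff1 from 471 ± 18.8 to 189 ± 29.2 CPM (log2 fold change -1.32, SE 0.29, edgeR adjusted p = 0.0451). The 2 groups did not overlap. This call was lost with upper-quartile factors (edgeR adjusted p = 0.0597) and without any 1 of the 4 libraries (0.163 to 0.359). Gkn2 went from 84.9 ± 5.49 to 56.6 ± 7.48 CPM without overlap and was not called (log2 fold change -0.58, SE 0.15, edgeR adjusted p = 0.0682), though DESeq2 (adjusted p = 0.0159) and a fit of these 2 groups alone (edgeR adjusted p = 0.00620) called it. Gkn1 (-0.40, SE 0.35), Gkn3 (0.17, SE 0.22) and Tff2 (-0.29, SE 0.42) were not called, and Tff3, with 3 and 0 counts against 2 and 0, was not tested. The count of 1 of 5 stood against 4.64% of all genes called and 2.54% lower. With both treatments Tff1 stood at 189 ± 29.2 CPM, near its untreated level of 171 ± 61.6 CPM, and the libraries of these 2 groups overlapped.

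In the 48 h experiment Hnf4a RNA in vehicle was 225 CPM with ethanol and 49.9 CPM with 4OHT, so some was left. MRTX1133 lowered it further with 4OHT, to 27.5 CPM (log2 fold change -0.86, edgeR adjusted p = 0.0185). With ethanol its change was not called (-0.31, edgeR adjusted p = 0.378). The interaction term, which asks whether MRTX1133 acted differently with ethanol and with 4OHT, called 0 of 5 members and 0 of 15458 genes (0%). Before adjustment, 1150 of those genes had p below 0.05. DESeq2 called 36 genes for this term and none of the members. Its log2 values were 0.92 for Gkn1 (SE 0.54), -0.40 for Gkn2 (SE 0.21), -0.66 for Gkn3 (SE 0.32), -0.29 for Tff1 (SE 0.40) and 0.30 for Tff2 (SE 0.62), and Tff3 was not tested. The term for Gkn1 was 0.097 without ethanol vehicle replicate 1 and 1.44 without ethanol vehicle replicate 2. For Gkn1, with log2 fold changes of -1.32 with Hnf4a and -0.40 with 4OHT, the term for that difference was not called (edgeR adjusted p = 0.802).

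Other genes of gastric mucous and chief cells did not move as one group with the members. From a list of 19 such genes, 12 of the 15 tested were called with trametinib in 1027B, 8 higher and 4 lower, with a median log2 fold change of 0.79, where 26.7% of all genes were called. Anxa10, a marker of gastric surface cells, fell with Tff1 and Gkn2 from 330 ± 139 to 51.7 ± 9.96 CPM (log2 fold change -2.67, edgeR adjusted p = 0.00385). Among those higher, Cym, which encodes the milk-clotting protease chymosin, rose from 18.0 ± 6.50 to 5059 ± 2969 CPM (log2 fold change 8.13, edgeR adjusted p = 0.00136), and Cblif, the vitamin B12-binding intrinsic factor, from 0.251 ± 0.125 to 16.2 ± 2.46 CPM (5.96, edgeR adjusted p = 0.000462). With MRTX1133 in 1027B, where 6.27% of all genes were called, 2 of 15 were higher, again Cym (6.31) and Cblif (3.91), and 4 were lower, Muc5ac (log2 fold change -1.87, edgeR adjusted p = 0.0374) the most.

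Deletion of Hnf4a raised part of this list together with the members. At 48 h in vehicle, where 31% of all genes were called and 15.3% were higher, 7 of 15 were higher and 2 lower, with Muc5ac, the mucin of gastric surface cells that Tff1 accompanies, going from 0.462 ± 0.179 to 16.3 ± 3.75 CPM (log2 fold change 5.12, edgeR adjusted p = 0.000462) and Cym from 2.27 ± 1.60 to 37.9 ± 5.68 CPM (4.06, edgeR adjusted p = 0.000997). Under MRTX1133 8 of 15 were higher and 2 lower (27.7% of all genes called). At 2 weeks, where 9.81% of all genes were called, 5 of 14 were higher and 1 was lower, Pgc, the chief cell pepsinogen C (log2 fold change -2.60, edgeR adjusted p = 0.00974). With MRTX1133 in 3154, 3 of 15 were higher with Hnf4a present and 4 of 15 with 4OHT (0.349% and 4.64% of all genes called), none lower, and Cym was higher in both. In 3311, 2 of 10 were higher and 1 lower, a share under the 39% of all genes called. Cym therefore rose both where Tff1 rose and where it fell.

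**Figure D3:**
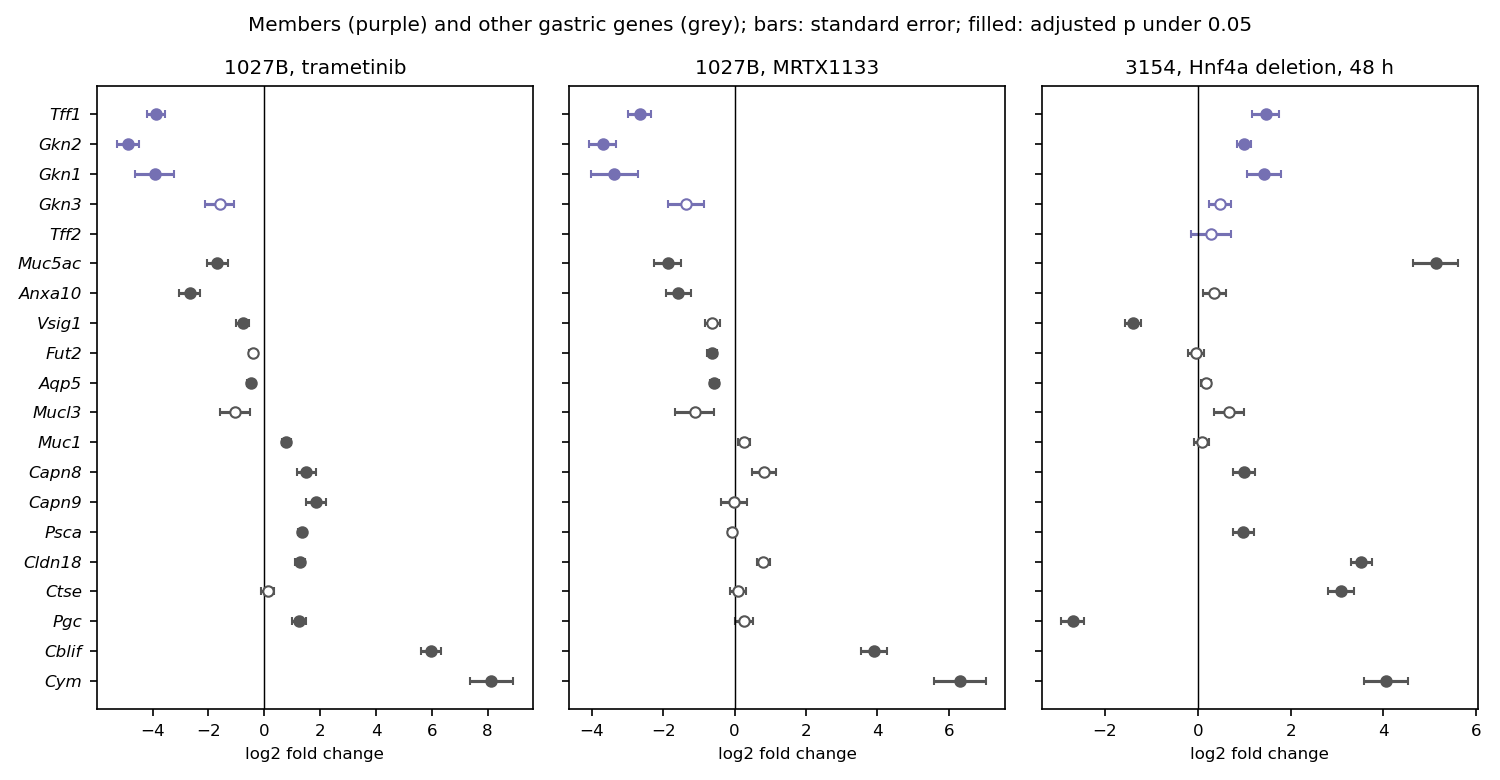
Log2 fold change of the members (purple) and of the other gastric mucous and chief cell genes tested (grey) in 3 comparisons, with bars of 1 standard error; filled points have an edgeR adjusted p under 0.05, and genes with at most 3 counts in every library of a group are left out. In 1027B Tff1, Gkn2 and Anxa10 lie left of 0 and Cblif and Cym right of it, while on Hnf4a deletion Tff1, Muc5ac and Cym all lie right of 0.

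The partners and proposed receptors of the members, 10 genes, were led by mucus proteins. In 1027B trametinib lowered 2 of 6 tested (13.2% of all genes), Dmbt1, a mucosal glycoprotein that binds trefoil factors, from 27.7 to 0.364 CPM (log2 fold change -6.23, edgeR adjusted p = 0.000469) and Muc5ac from 653 to 203 CPM (-1.69, edgeR adjusted p = 0.0186). MRTX1133 lowered the same 2 (3.26% of all genes), Dmbt1 by a log2 fold change of -4.15 (edgeR adjusted p = 0.00365). On deletion at 2 weeks 4 of 7 were higher (4.03% of all genes) and none lower, with Dmbt1 from 1.02 to 11.8 CPM (log2 fold change 3.51, edgeR adjusted p = 0.0216) and Ackr3, the scavenger receptor named as a trefoil receptor, from 1.18 to 11.0 CPM (3.22, edgeR adjusted p = 0.0132). At 48 h 3 of 8 were higher and 1 lower in vehicle and 1 and 1 under MRTX1133 (31% and 27.7% of all genes called), and none was called for MRTX1133 in 3154. In 3311, where 39% of all genes were called, 2 of 5 were higher and 2 lower, among them Dmbt1 (log2 fold change -1.52, edgeR adjusted p = 0.0366) and Fcgbp, the mucus protein that binds Tff3, higher by 2.49 (edgeR adjusted p = 0.00142).

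Genes of intestinal goblet cells, the home of Tff3, formed a list of 14. Of 11 tested in 3311, 4 were lower and 2 higher, where 39% of all genes were called, with Agr2, a goblet cell chaperone, falling most (log2 fold change -4.28, edgeR adjusted p = 0.000382) while Tff3 did not fall. In 1027B 3 of 7 were lower with trametinib and 2 of 7 with MRTX1133 (13.2% and 3.26% of all genes). At 48 h with 4OHT 2 of 12 were higher and 2 lower, both in vehicle and under MRTX1133, and at 2 weeks 1 of 13 was higher, shares near the 31%, 27.7% and 9.81% of all genes called. Agr2 fell at 48 h in vehicle by a log2 fold change of -2.74 (edgeR adjusted p = 0.00344). Among 20 foregut and gut transcription factors, trametinib in 1027B raised 3 and lowered 6 of 14 tested and MRTX1133 lowered 6, and deletion at 48 h raised 4 and lowered 3 of 15 in vehicle and raised 2 and lowered 5 under MRTX1133. The same shares of all genes, 26.7% and 6.27% in 1027B and 31% and 27.7% at 48 h, stand beside these counts. In 3311 7 of 16 of these factors were higher and 4 lower (39% of all genes called), and at 2 weeks 3 of 14 were lower (9.81%). With doxycycline in H1651 3 of 17 were higher (1.42%). The list holds Hnf4a itself, and nothing particular to either list was tested.

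Across the 22 mouse libraries, with log2 CPM centred within each table, Gkn2 and Gkn3 had a Pearson r of 0.60. Over the 18 libraries of the 3 tables that list them, Gkn2 had an r of 0.90 with Tff1 and with Gkn1, Tff1 of 0.89 with Gkn1, and Gkn3 of 0.42 with Tff1 and 0.32 with Gkn1. These points share treatments and tables, so the values only describe. Among 12596 other genes tested in all 4 mouse tables, those most like Gkn2 were Dmbt1 (r = 0.92), Mindy1 (0.90) and Clic1 (0.90), and those most like Gkn3 were Gm5513 (0.80), Gm15401 (0.73) and Ints10 (0.72). Over the 18 libraries, a search added after the values were seen, the genes most like Tff1 were Fam102b (0.96), Tns4 (0.95) and Gm47682 (0.94), and those most like Gkn1 were Slk (0.95), Gm47682 (0.94) and Capg (0.93).

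Genes next to the clusters were set beside the members. Of 7 protein-coding neighbours tested around the gastrokines, 4 were lower with trametinib in 1027B, 3 with MRTX1133 there and 4 in 3311, where 1 was higher. Of all genes 13.2%, 3.26% and 19.6% were lower in these comparisons. Around the trefoil genes 0 of 5 tested were called with either inhibitor in 1027B and 1 of 4, Pde9a, was lower in 3311. Prokr1, a receptor gene on the Gkn3 side, was lower in all 3 (log2 fold changes -1.22, -1.33 and -1.42), as was Gfpt1 (-1.25, -0.85 and -1.77). On deletion at 48 h, where 31% of all genes were called, 3 of the 7 gastrokine neighbours were lower and none higher, and 2 of 5 trefoil neighbours were higher. Antxr1, the protein-coding gene beside Gkn1, fell on deletion at 48 h from 18.0 to 7.54 CPM (log2 fold change -1.25, edgeR adjusted p = 0.00853), where Gkn1 and Gkn2 rose. With trametinib in 1027B it fell along with them, from 94.3 to 21.2 CPM (-2.16, edgeR adjusted p = 0.000434), and in 3311 it rose, from 144 to 252 CPM (0.81, edgeR adjusted p = 0.0102), where Gkn2 fell. Abcg1, a cholesterol transporter beside Tff3, rose on deletion at 48 h from 2.52 to 28.0 CPM (log2 fold change 3.47, edgeR adjusted p = 0.000404), while it was not called in 1027B. In the 2-week experiment Abcg1 was not called (6.91 against 18.9 CPM, log2 fold change 1.46, edgeR adjusted p = 0.272), and its groups overlapped. Antxr1, Gfpt1 and Aak1 were lower in that experiment, where 5.78% of all genes were lower. An annotated antisense gene, Gm15318, covers 31.4% of the exon bases of Tff1 (221 bp). It held between 0.0423% and 0.610% of the count of Tff1 in any library. The kit marks strand, but whether the counting used strand is not given in the sources used here, so reads of the 2 genes in the shared bases cannot be told apart.

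**Figure D4:**
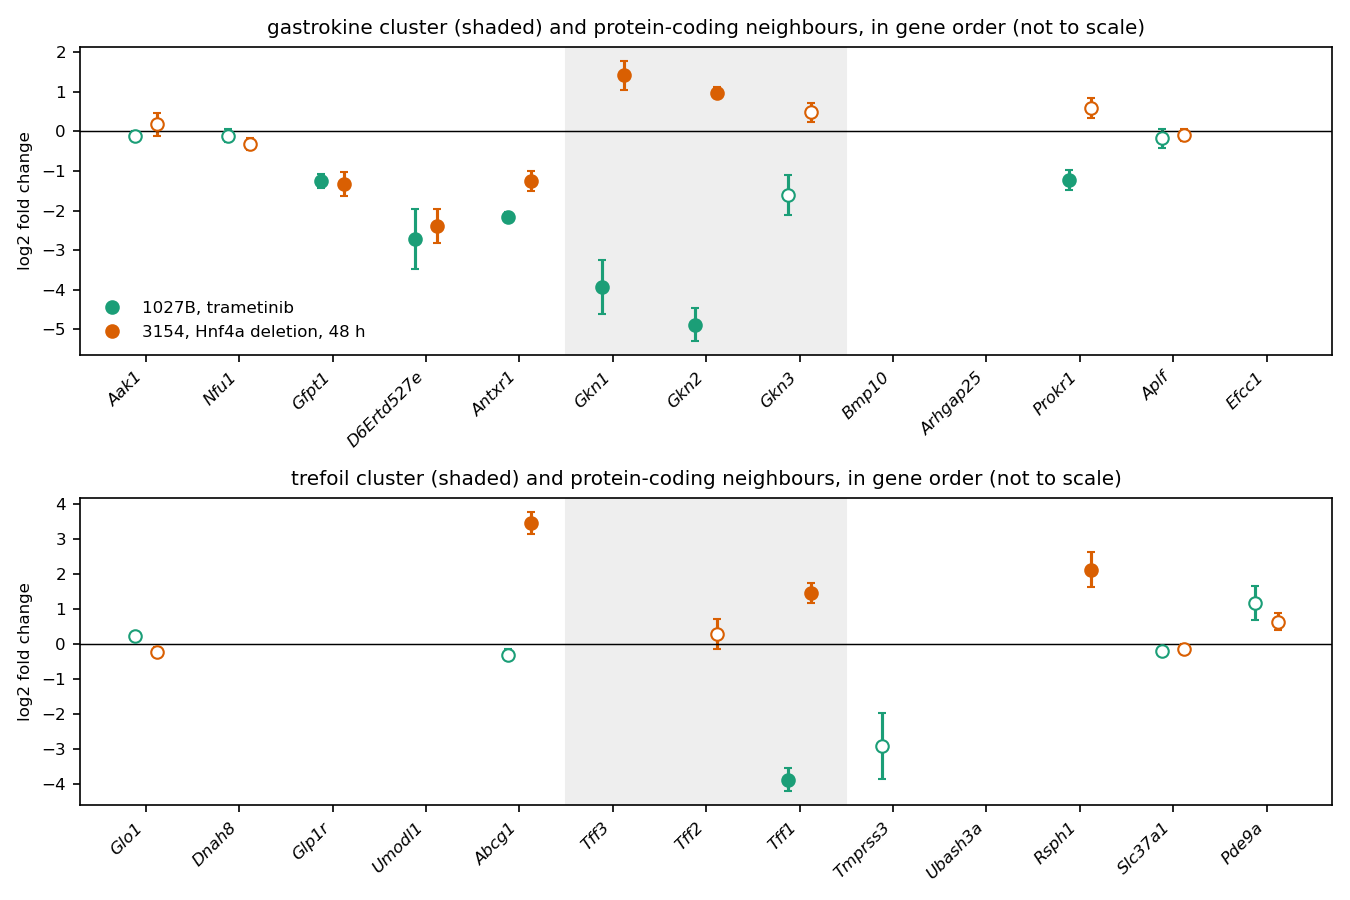
Log2 fold change of the members (shaded) and of up to 5 protein-coding neighbours on each side, in gene order and not to scale, for trametinib in 1027B (green) and Hnf4a deletion at 48 h in vehicle (orange), with bars of 1 standard error; filled points have an edgeR adjusted p under 0.05 and a missing point was not tested or had at most 3 counts in every library of a group. Antxr1 falls in both comparisons while Gkn1 and Gkn2 fall in the first and rise in the second.

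Markers of other cell types moved beside some of these results, and their part in the members' changes was not tested. The 3 club cell genes summed to 1.07 to 7.80 CPM in 1027B vehicle libraries, 152 to 283 CPM with trametinib and 69.8 to 80.7 CPM with MRTX1133. In 3154 at 48 h they summed to 35.3 to 70.1 CPM with ethanol and 427 to 637 CPM with 4OHT, and at 2 weeks to 35.3 to 46.8 and 141 to 164 CPM. With MRTX1133 in 3154 they summed to 145 to 196 CPM with ethanol and 950 to 965 CPM with 4OHT. In 3154 at 48 h most of the sum was Scgb1a1. In vehicle it stood at 33.6 and 68.5 CPM with ethanol and 425 and 632 CPM with 4OHT. Of the 3 genes, 1 was higher on deletion there in vehicle, 0 for MRTX1133 with ethanol and 1 for MRTX1133 with 4OHT. At 2 weeks 2 of the 3 were higher, and in 1027B 2 with trametinib and 1 with MRTX1133. The 5 alveolar type 2 genes summed to 6589 to 10586 CPM in 1027B vehicle, 2230 to 2760 CPM with trametinib and 3021 to 4665 CPM with MRTX1133. In 3311, where 4 of the 5 were listed, they summed to 4465 to 5204 CPM with vehicle and 598 to 695 CPM with trametinib. Of the 2 tested in 3311, 1 was lower. In 1027B 3 of the 5 were lower and 1 higher with trametinib, and 1 lower and 1 higher with MRTX1133. In 3154 at 48 h the sum went the other way with MRTX1133, from 6454 to 8723 CPM up to 10713 to 13550 CPM with ethanol and from 7932 to 9122 CPM up to 12514 to 16753 CPM with 4OHT, while 0 of the 5 genes were called with ethanol (median log2 fold change 0.23) and 1 was higher and 1 lower with 4OHT (median -0.44). The 5 leukocyte genes summed to 13.5 to 38.5 CPM with ethanol and 3.77 to 5.77 CPM with 4OHT at 2 weeks. That sum was nearly all Csf1r, with Cd3e at 0 or not listed. In 3311 the same list, of which Csf1r alone had counts, summed to 4.68 to 11.7 CPM with vehicle and 20.2 to 27.7 CPM with trametinib. Fibroblast, endothelial, enteroendocrine and ciliated lists each summed to at most 15.8 CPM in any mouse library. In such bulk RNA, fewer cells making a transcript and less transcript per cell cannot be told apart.

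In the human lines edgeR called no member with all libraries and without a replicate block. In H358 all 5 human genes had 0 counts in all 4 libraries, which allows at most 0.118 CPM in any of them by the limit of 3 counts. The comparison called 46.8% of 18972 genes, and HNF4A was also at 0 in H358. In H1651 TFF1 was the main member. With trametinib it went from 262 and 121 counts to 72 and 57, or from 4.77 ± 1.41 to 1.78 ± 0.251 CPM, with no overlap. The log2 fold change was -1.43 (SE 0.29) with an unadjusted edgeR p of 0.00414 and an adjusted p of 0.999. edgeR called 0 of 18277 genes (0%) in this comparison, 597 had an unadjusted p under 0.05, and DESeq2 called 44, TFF1 not among them. Same-numbered libraries had a correlation of 0.62 here. A fit with the replicate as a block called TFF1 lower, as given below with the dependence on processing. TFF2 had 16 and 19 counts against 8 and 8, TFF3 36 and 11 against 23 and 16, and GKN2 24 and 34 against 13 and 30. These 3 were not called, and GKN1, with 6 and 6 against 3 and 1, was not tested. None of the 12 ERK output genes was called either, at a median log2 fold change of -1.83.

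With doxycycline, which raised HNF4A 2.30-fold, TFF1 in H1651 had 323 and 229 counts without and 469 and 344 with the drug, 11.0 ± 3.23 against 16.8 ± 2.29 CPM. The groups did not overlap, and the log2 fold change of 0.61 (SE 0.21) was not called (edgeR adjusted p = 0.273). Of the libraries grown without doxycycline, leaving out replicate 1 gave 0.94 and a call (edgeR adjusted p = 0.0223), and leaving out replicate 2 gave 0.34 (edgeR adjusted p = 0.686). A fit with the replicate as a block called TFF1 higher, as given below with the dependence on processing. TFF2 (5 and 19 counts against 16 and 20) and TFF3 (23 and 13 against 14 and 12) overlapped between groups. GKN2, with 0 and 7 counts against 1 and 4, was not tested. Of 3 members 0 were called, where 1.42% of 17351 genes were; at an unadjusted p under 0.05, TFF1 alone passed, as did 2203 of all 17351 genes, and DESeq2 called none of the 3. Beside this, 2 of 5 epithelial markers were higher with doxycycline, and the 6 fibroblast markers summed to 643 to 725 CPM without and 407 to 445 CPM with it, 1 of 5 tested being lower. Their part in the values of TFF1 was not tested. The values of TFF1 were higher where HNF4A was raised in this line, mouse Tff1 rose where Hnf4a was deleted, and no test joins the 2 species.

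**Figure D5:**
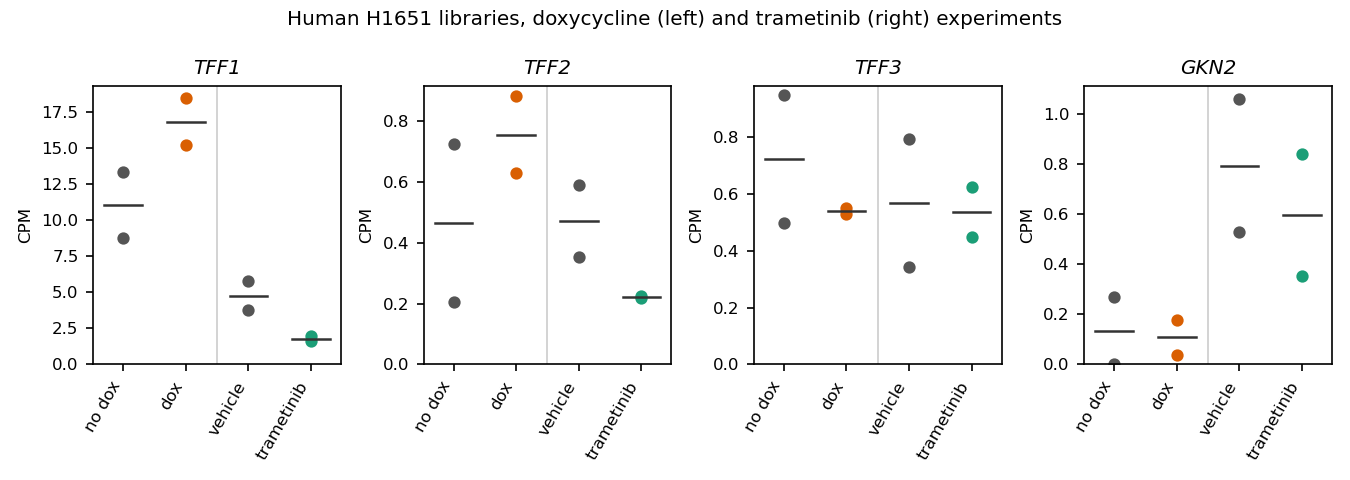
Level of 4 human members in the 8 H1651 libraries as TMM-scaled CPM on linear axes that start at 0 and differ between panels, with one point a library and a bar at the mean. TFF1 runs from 1.60 to 18.4 CPM and the other 3 genes lie at or under 1.06 CPM.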

How the data were processed

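RNA was made into poly(A) libraries with a directional kit and sequenced in pairs, per the labels' protocols. The deposited values are raw counts per gene, whole numbers that the authors did not normalize. Cutadapt 3.5, STAR 2.7.6a and featureCounts 1.6.3 are named in the submitters' processing notes, as are mouse and human genome builds, without saying which table used which. Each table was filtered with filterByExpr, scaled by TMM and tested with glmQLFit and glmQLFTest in edgeR 4.0.16 (R 4.3.3), over all libraries of the table, with Benjamini-Hochberg adjustment over all genes tested. A change needed an adjusted p under 0.05. Alternatives were to leave out each library, to require an absolute log2 fold change of at least 1, to fit the 2 groups alone, to add the replicate as a block, to filter at 10 counts in every library or not at all, to scale by upper quartile or RLE, and to use DESeq2 1.42.0. Totals of 19692517 to 45284286 counts limit genes at a few counts, and ratios given with an interval cover counting error only. The test was checked on simulated counts: of 200 genes changed 3-fold in the 1027B trametinib comparison, 75% of them were recovered among 14555 genes, and 9.64% of the calls there were unchanged genes. That share was 13.9% for the 2-week comparison and 14.8% for 3311, above the 5% aimed at.

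Same-numbered libraries deviated together in the 1027B table, where the correlation of their differences was 0.24, 0.37 and 0.41 for the 3 pairs of groups, and blocked values stand beside those results where they change a call. In the other tables, with a single pair of groups or with correlations of both signs, the numbers were not taken to pair the libraries. All members are named in every comparison. From each list the text names up to 3 called genes with the largest absolute log2 fold change, the 3 genes most like a member by Pearson r, and neighbours of the 2 clusters. Members and lists were chosen with earlier results of these data known. Promoters came from RefSeq, and gene positions from GENCODE M21, used only for the mouse genes. Protein sequences and human positions were not used here. Some genes and alleles are not reported here.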

Additional observations from a re-analysis of the deposited data

Results flagged for a closer look

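Gkn3 had values of opposite direction under MRTX1133 in the 2 organoid lines. In 1027B, at 20 nM, both libraries lay below both vehicle libraries, with a log2 fold change of -1.36. In 3154 with Hnf4a present, at 3 nM, both libraries lay above both vehicle libraries, with a log2 fold change of 0.83. Neither change passed the threshold of edgeR's test without a replicate block. With the block the change in 1027B did (edgeR adjusted p = 0.00107), as it did with DESeq2 (adjusted p = 0.0447), while without vehicle replicate 1 the log2 fold change shrank to -0.59. The lines were in separate tables at different doses, and the difference between them was not tested.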

How the results depend on the processing

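Of 342 values of single members under another tool, scaling, filter, group choice or block, 324 kept their direction and their side of the threshold, 2 lost it, 16 gained it and 0 changed sign. With 1 library left out, 184 of 232 held, 27 were lost, 3 gained and 18 changed sign. A group left with 1 library was assumed to vary like the other groups.

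With the replicate block the count of members called went from 0 to 1 for doxycycline in H1651 (TFF1, edgeR adjusted p = 1.80e-07), from 1 to 2 for 3311 (Tff3 added, edgeR adjusted p = 0.0472), from 0 to 2 for MRTX1133 against trametinib and from 0 to 1 for trametinib in H1651 (TFF1, edgeR adjusted p = 6.51e-09). Same-numbered libraries in H1651 had correlations of 0.32 with doxycycline and 0.62 with trametinib, the latter above the 0.24, 0.37 and 0.41 of 1027B. Those of the other 2-group tables were 0.43 (2 weeks), 0.32 (H358) and 0.13 (3311). In 3154 at 48 h they ran from -0.25 to 0.55. A number is at most a hint of pairing in these tables, and whether their libraries were paired is not known. At 2 weeks the replicate block added Gkn1 (edgeR adjusted p = 0.0411), for 5 members. DESeq2 gave 2 for MRTX1133 against trametinib, 1 for MRTX1133 with Hnf4a and 2 for MRTX1133 with 4OHT, where the fit of only these 2 groups gave 2 and upper-quartile factors gave 0. A filter of 10 counts in every library gave 2 at 2 weeks, since fewer members were tested. For the other changes the cause was not tested. Among all genes, DESeq2 called 2303 at 2 weeks against 1421 in the edgeR fit, 451 against 247 for doxycycline, 1627 against 913 for MRTX1133 in 1027B, 330 against 54 for MRTX1133 with Hnf4a and 1334 against 717 for it with 4OHT, where the fit of only these 2 groups gave 3932. The replicate block gave 4563 at 2 weeks, 3048 for doxycycline, 6540 against 3880 for trametinib and 3515 for MRTX1133 in 1027B, and 1881 against 0 for trametinib in H1651. Deletion in vehicle called 4795, and 3154 with only these 2 groups. The fold limit of 1 removed Gkn2 from the members called for deletion in vehicle and under MRTX1133 (2 of the 3 left in each). It left 127 for doxycycline, 3386 of 5938 in 3311, 1768 and 417 for trametinib and MRTX1133 in 1027B, 4118 of 8871 in H358, 323 with 4OHT, and 2518 and 2196 (of 4279) for deletion in vehicle and under MRTX1133.

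Leaving out each library gave 0 to 4 members called for deletion at 2 weeks, 0 to 1 for doxycycline, 0 to 1 for trametinib in 3311, 1 to 2 for MRTX1133 in 1027B, 0 to 1 for MRTX1133 in 3154 with Hnf4a, 0 in each case for MRTX1133 with 4OHT, and 1 to 2 for deletion under MRTX1133. Log2 fold changes that changed sign were none of them called. They ranged for Gkn3 from -0.73 to 0.42 at 2 weeks, from -0.39 to 0.66 for MRTX1133 against trametinib, from -0.11 to 0.41 for MRTX1133 with 4OHT and from -0.46 to 0.051 for deletion under MRTX1133. Gkn1 ranged from -0.32 to 2.92 for MRTX1133 against trametinib. Tff2 ranged from -0.066 to 0.72 for deletion in vehicle and from -0.15 to 0.87 for the interaction, and Tff1 from -0.71 to 0.10 for the interaction. TFF3 ranged from -0.80 to 0.12 with doxycycline and from -0.55 to 0.64 with trametinib, and GKN2 from -1.13 to 0.18 with trametinib.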
